A study of Arabidopsis thaliana with 90 samples.

Results

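The line PHYB-CFP, PHYD-YFP/abcde carries 2 phytochrome transgenes in an Arabidopsis seedling without functional phytochromes of its own, and its response to 24 h of red light (R) was compared between 17°C and 27°C. The libraries were chosen by their labels alone: 12 of the 90 in the series belong to this line in darkness or after 24 h R at either temperature, 3 replicates in each of 4 groups. The groups are seedlings at 17°C after 24 h R, at 17°C in darkness, at 27°C after 24 h R and at 27°C in darkness. All were whole seedlings, 4 d old, and R was given at 50 µmol m−2 s−1. The question is which genes changed more, less or in the other direction at the lower temperature, and the measure is the log2 response at 17°C minus the log2 response at 27°C.

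Both receptors sit in abcde, the Ler-derived quintuple mutant phyA-201 phyB-1 phyC-1 phyD-1 phyE-1, which every group used here shares. PHYB-CFP is driven by the PHYB promoter, whereas PHYD-YFP is driven by the constitutive viral 35S promoter, so the tissue and level of phyD are not those of the native gene. The mutant phyB and phyD transcripts are counted together with the transgene transcripts. How the line with both transgenes was made, and whether replicates are separate cultures, is not given in the sources used here. The p-values therefore rest on a spread between replicate libraries that may be technical. It was estimated with all 90 libraries of the series. The lines PHYB-CFP/abcde and PHYD-YFP/abcde, each with 12 libraries of the same 4 treatments, serve as the comparison.

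Phytochromes are red-light receptors that R converts to an active form (Pfr), which in turn reverts in the dark, faster when it is warm. Active phytochrome enters the nucleus and removes the PHYTOCHROME INTERACTING FACTORS (PIFs), basic helix-loop-helix (bHLH) proteins that hold back greening and promote hypocotyl elongation in darkness. A de-etiolating seedling therefore induces the genes of chlorophyll synthesis, light-harvesting antennae and photosystems, and represses elongation genes. Temperature acts on both the receptor and the PIFs.

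The 12 libraries held 15613637 to 21121648 counted reads each, and 20695 genes were tested in 1 model of all 90 libraries. Levels are in counts per 1e6 reads (CPM) scaled for library composition. A gene is called here when the Benjamini-Hochberg adjusted p of the edgeR quasi-likelihood test is under 0.05 and the change is at least 2-fold. For each of the 12 libraries the nearest other one was a replicate of its own group. Replicate 1 at 27°C after 24 h R stood somewhat apart, with a root mean square log2 difference of up to 0.72 from its mates, while the lowest difference within any group was 0.546. In this library the 25 tested heat shock genes summed to 1899 CPM, against 686 and 688 CPM in its mates, and CYP71A12, a gene of camalexin synthesis chosen after its values were seen, had 202 CPM, against 0.219 CPM in replicate 2 and 0 CPM in replicate 3. CYP71A12 was also raised in replicate 1 at 17°C after 24 h R, at 70.1 CPM, against 2.84 and 1.45 CPM in its mates. Without replicate 1 of the 27°C group, 707 genes were called in the main comparison in place of 881, and 648 of them were among the 881.

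The transgenes were read first. PHYD had 4492, 4823 and 5242 CPM at 17°C after 24 h R and 5422, 5848 and 5531 CPM at 17°C in darkness. At 27°C it had 9736, 9150 and 9328 CPM after 24 h R and 11511, 11576 and 10372 CPM in darkness. The 35S-driven transcript was thus lower in all 6 libraries at 17°C than in any of the 6 at 27°C. These are levels of RNA and not of protein. For PHYD-YFP/abcde kept in constant R, the paper reports the reverse for the PHYD-YFP protein, which was more abundant in the cool. For dark-grown seedlings of that line it reports no such excess. The protein level in the line with both transgenes is not given in the sources used here. The response of the transcript to R was small at both temperatures. The difference between these responses was 0.04 ± 0.85 (log2, SE) with an adjusted p of 0.991 in edgeR. The model shares its estimate of the spread with lines lacking PHYD-YFP, in some of whose libraries PHYD was raised: replicate 1 of PHYB-CFP/abcde at 27°C had 61.7 CPM after 24 h R and 171 CPM in darkness, against 14 to 21.1 CPM in the other libraries of these groups. Replicate 2 of PHYB-CFP/abcde at 17°C in darkness had 44.2 CPM, against 18.9 and 16.5 CPM in the other replicates of that group, and was kept.

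PHYB behaved differently. It had 425, 413 and 472 CPM at 17°C after 24 h R, and 560, 641 and 587 CPM at 17°C in darkness. At 27°C the values were 562, 585 and 620 CPM after 24 h R and 1552, 1637 and 1534 CPM in darkness. The highest levels were those of etiolated seedlings at 27°C, and the irradiated and dark groups did not overlap at either temperature. The response was −0.45 ± 0.11 (log2, SE) at 17°C and −1.42 ± 0.11 at 27°C, and the difference of 0.97 ± 0.15 had an adjusted p of 8.23e-06 (edgeR) but stayed below 2-fold. It was above 2-fold under DESeq2 (1.03), RLE scaling (1.03) and quantile normalization (1.26), and without replicate 2 at 17°C after R (1.01), replicate 3 at 27°C after R (1.01) or replicate 2 at 17°C in darkness (1.02). A like difference of 1.08 ± 0.15 was found in PHYB-CFP/abcde, while PHYD-YFP/abcde, which has only the mutant phyB transcript, had −0.12 ± 0.16. The difference between the line with both transgenes and PHYD-YFP/abcde was 1.09 ± 0.22 (adjusted p = 0.00994). PHYA, whose mutant transcript is still counted, fell to 257, 207 and 236 CPM at 17°C after 24 h R, against 1050, 1139 and 1027 CPM in darkness, and to 301, 309 and 307 CPM at 27°C, against 1136, 1197 and 1214 CPM in darkness. PHYC lay between 34.6 and 47.2 CPM in all 12 libraries, and PHYE between 22.6 and 47.4 CPM.

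The response of 881 of the 20695 genes (4.26%) differed between the temperatures: it was higher at 17°C for 342 genes (1.65%) and lower at 17°C for 539 genes (2.6%). The median difference over all genes tested was −0.0463 (log2). At each temperature alone, 3130 genes (15.1%) responded at 17°C, 2142 up (10.4%) and 988 down (4.77%), and 2351 genes (11.4%) responded at 27°C, 1910 up (9.23%) and 441 down (2.13%). With quantile normalization the same counts split into 1852 up and 1396 down at 17°C and 1484 up and 700 down at 27°C. The percentages of all tested genes given here are the background for the counts in gene lists below.

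**Figure D1:**
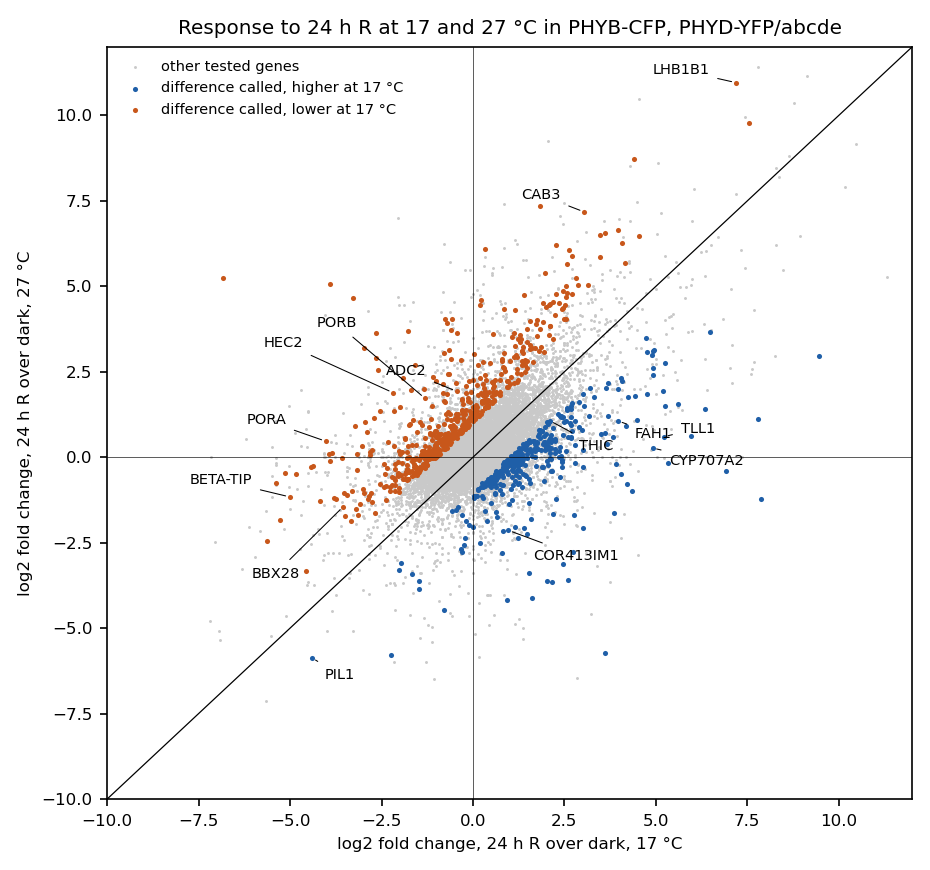
Log2 fold change of each tested gene after 24 h R over darkness in PHYB-CFP, PHYD-YFP/abcde, at 17°C on the horizontal axis and at 27°C on the vertical axis. Blue points are the 342 genes with a response called higher at 17°C, orange points the 539 called lower, grey points the other tested genes, and the diagonal marks equal responses. CAB3 and LHB1B1 lie high above the diagonal, whereas FAH1 and CYP707A2 lie below it.

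Only 11 of the 881 genes had called responses in opposite directions. Of the 342 genes with a higher difference, 182 rose at 17°C only, 46 rose at both temperatures, 39 fell at 27°C only and 66 had no called response at either temperature. Of the 539 genes with a lower difference, 176 fell at 17°C only, 153 rose at 27°C only, 87 rose at both, and 9 fell at 17°C while they rose at 27°C.

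The levels behind these responses were then read. For 245 of the 539 genes (45.5%) the level differed between temperatures in darkness and not after 24 h R, and for 334 of the 539 (62%) the dark level was called higher at 17°C. Among all tested genes 13.3% were higher at 17°C in darkness. For the 342 genes the pattern was another one: 166 (48.5%) were higher at 17°C after 24 h R, against 12.3% of all tested genes, and 121 (35.4%) were lower at 17°C in darkness, against 9.17% of all. These shares come from the libraries of the main comparison itself and are a description of it.

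The promoters of 6 genes are shown as examples whose windows hold an evening element or a G-box: PORA and PORB, which were high in darkness at 17°C, a pair of antenna genes that rose more at 27°C, and a pair of genes with a higher difference at 17°C. The windows of CAB1, CAB3, LHB1B1, LHCB3, CYP707A2 and FAH1, also described here, hold neither motif. Each is the 250 bases before the annotated gene start in the RefSeq annotation of TAIR10.1, 5′ to 3′ on the strand of the gene. Capitals mark the evening element AAATATCT, named for clock-controlled genes, and the G-box CACGTG, a motif that PIFs and HY5 bind, searched on both strands. The windows are chr5:21992815-21993064 for PORA (minus strand), chr4:13725296-13725545 for PORB (plus strand), chr3:17495034-17495283 for LHCA4 (minus strand), chr3:10255656-10255905 for LHCB2.3 (plus strand), chr2:12666685-12666934 for THIC (plus strand) and chr1:10289667-10289916 for COR413IM1 (minus strand).
PORA: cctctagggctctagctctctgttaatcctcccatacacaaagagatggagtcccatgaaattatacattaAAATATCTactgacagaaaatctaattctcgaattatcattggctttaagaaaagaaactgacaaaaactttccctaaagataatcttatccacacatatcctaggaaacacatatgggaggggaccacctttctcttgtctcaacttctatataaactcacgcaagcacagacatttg
PORB: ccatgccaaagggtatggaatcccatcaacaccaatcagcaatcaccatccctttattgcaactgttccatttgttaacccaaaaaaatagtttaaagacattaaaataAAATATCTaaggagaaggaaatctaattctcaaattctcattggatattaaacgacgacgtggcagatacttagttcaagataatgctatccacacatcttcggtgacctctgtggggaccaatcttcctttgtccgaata
LHCA4: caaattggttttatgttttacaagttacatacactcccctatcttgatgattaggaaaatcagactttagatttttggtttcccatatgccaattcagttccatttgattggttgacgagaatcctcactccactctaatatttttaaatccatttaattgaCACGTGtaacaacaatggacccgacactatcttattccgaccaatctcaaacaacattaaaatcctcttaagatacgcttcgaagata
LHCB2.3: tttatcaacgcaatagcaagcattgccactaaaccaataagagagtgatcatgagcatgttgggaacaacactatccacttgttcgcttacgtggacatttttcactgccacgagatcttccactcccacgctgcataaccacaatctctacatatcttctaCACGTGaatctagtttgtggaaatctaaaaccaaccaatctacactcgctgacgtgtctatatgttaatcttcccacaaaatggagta
THIC: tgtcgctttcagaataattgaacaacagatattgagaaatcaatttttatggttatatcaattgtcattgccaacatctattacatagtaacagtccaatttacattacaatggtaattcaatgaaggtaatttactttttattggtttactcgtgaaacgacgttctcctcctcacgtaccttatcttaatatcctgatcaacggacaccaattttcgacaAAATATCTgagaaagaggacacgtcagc
COR413IM1: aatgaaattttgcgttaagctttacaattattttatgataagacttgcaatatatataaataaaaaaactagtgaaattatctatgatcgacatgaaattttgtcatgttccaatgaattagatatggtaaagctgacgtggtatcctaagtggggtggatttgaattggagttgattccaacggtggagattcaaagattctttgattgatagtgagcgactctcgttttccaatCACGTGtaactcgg

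An evening element starts 179 bases before the gene in PORA, 141 bases before it in PORB and 28 bases before it in THIC, and 4.87% of 20666 promoter windows hold this element. The G-box starts 88 bases before the gene in both LHCA4 and LHCB2.3 and 14 bases before it in COR413IM1, and 7.43% of all windows hold it. Of the 21 antenna promoters 5 hold a G-box (23.8%). A G-box is also found in 57 of 537 promoters of the genes with a lower difference (10.6%) and in 28 of 342 with a higher one (8.19%). The evening element is in 25 of the 537 (4.66%) and in 25 of the 342 (7.31%). A match of letters is a description and does not show that a factor binds there.

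Most genes of the light-harvesting antenna, the proteins that hold chlorophyll a and b around both photosystems, had a smaller response at 17°C. All 21 tested antenna genes rose after 24 h R at both temperatures, by a median of 2.46 (log2) at 17°C and 4.77 at 27°C. The difference was called lower at 17°C for 16 of the 21 (2.6% of all tested genes were), with a median of −1.91, and higher for none (1.65% of all). Without replicate 1 of the 17°C dark group 10 were called lower, and the median was −1.73. These were the fewest calls and the smallest median difference in size of any fit with 1 library left out, so this library affected the result most. The level of the antenna transcripts after irradiation was not called different for any of the 21. In darkness 16 of them were higher at 17°C (13.3% of all tested genes were) and 1, LHCB7, was lower (9.17% of all), with a median of 1.65.

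The sums over the 21 genes show where the difference arose. They were 52632, 58929 and 57276 CPM at 17°C after 24 h R and 10538, 8218 and 7833 CPM at 17°C in darkness. They were 68990, 63452 and 65370 CPM at 27°C after 24 h R and 2969, 3206 and 3114 CPM at 27°C in darkness. The dark groups did not overlap, and every dark library at 17°C was above every one at 27°C. The irradiated sums did not overlap either, with the 27°C libraries slightly above.

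LHB1B1, an antenna gene of photosystem II, had very low dark levels. It reached 5896, 6402 and 5811 CPM at 17°C after 24 h R, against 60.9, 40.9 and 23.0 CPM in darkness, and 7862, 7681 and 7806 CPM at 27°C after 24 h R, against 3.6, 4.01 and 4.09 CPM in darkness. The irradiated levels were thus of the same order, and the difference of −3.78 ± 0.74 (adjusted p = 0.000268, edgeR) lay mostly in the dark libraries. CAB3, another major antenna gene, had 2792, 3274 and 3293 CPM at 17°C after 24 h R and 426, 343 and 374 CPM in darkness there. At 27°C CAB3 had 2508, 2051 and 2275 CPM after 24 h R and 14, 21.1 and 12 CPM in darkness, a difference of −4.15 ± 0.59 (adjusted p = 8.08e-07). CAB1 differed by −3.94 ± 0.56 and CAB2 by −2.22 ± 0.58. CAB1, CAB2 and CAB3 are near-identical neighbours on chromosome 1, as LHB1B1 is to LHB1B2, so their separate counts are uncertain.

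LHCB3, a photosystem II antenna gene outside that cluster, had 1944, 2092 and 2418 CPM at 17°C after 24 h R, against 383, 304 and 290 CPM in darkness. At 27°C LHCB3 had 3487, 3050 and 3326 CPM after 24 h R, against 48.1, 60.5 and 56.2 CPM in darkness. The difference was −3.18 ± 0.52 (adjusted p = 1.32e-05). LHCA4, of the photosystem I antenna, differed by −1.92 ± 0.34 (adjusted p = 5.5e-05). LHCB2.3 differed by −1.88 ± 0.55 (adjusted p = 0.0231), a call lost without replicate 1 of the 17°C dark group (−1.73) or replicate 1 or 2 of the 27°C dark group (−1.84 in both). The 5 antenna genes that did not pass were LHCA5 (0.47), LHCA6 (−1.25), LHCB4.1 (−0.21), LHCB4.3 (0.93) and LHCB7 (0.74). They are named after their values were seen.

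**Figure D2:**
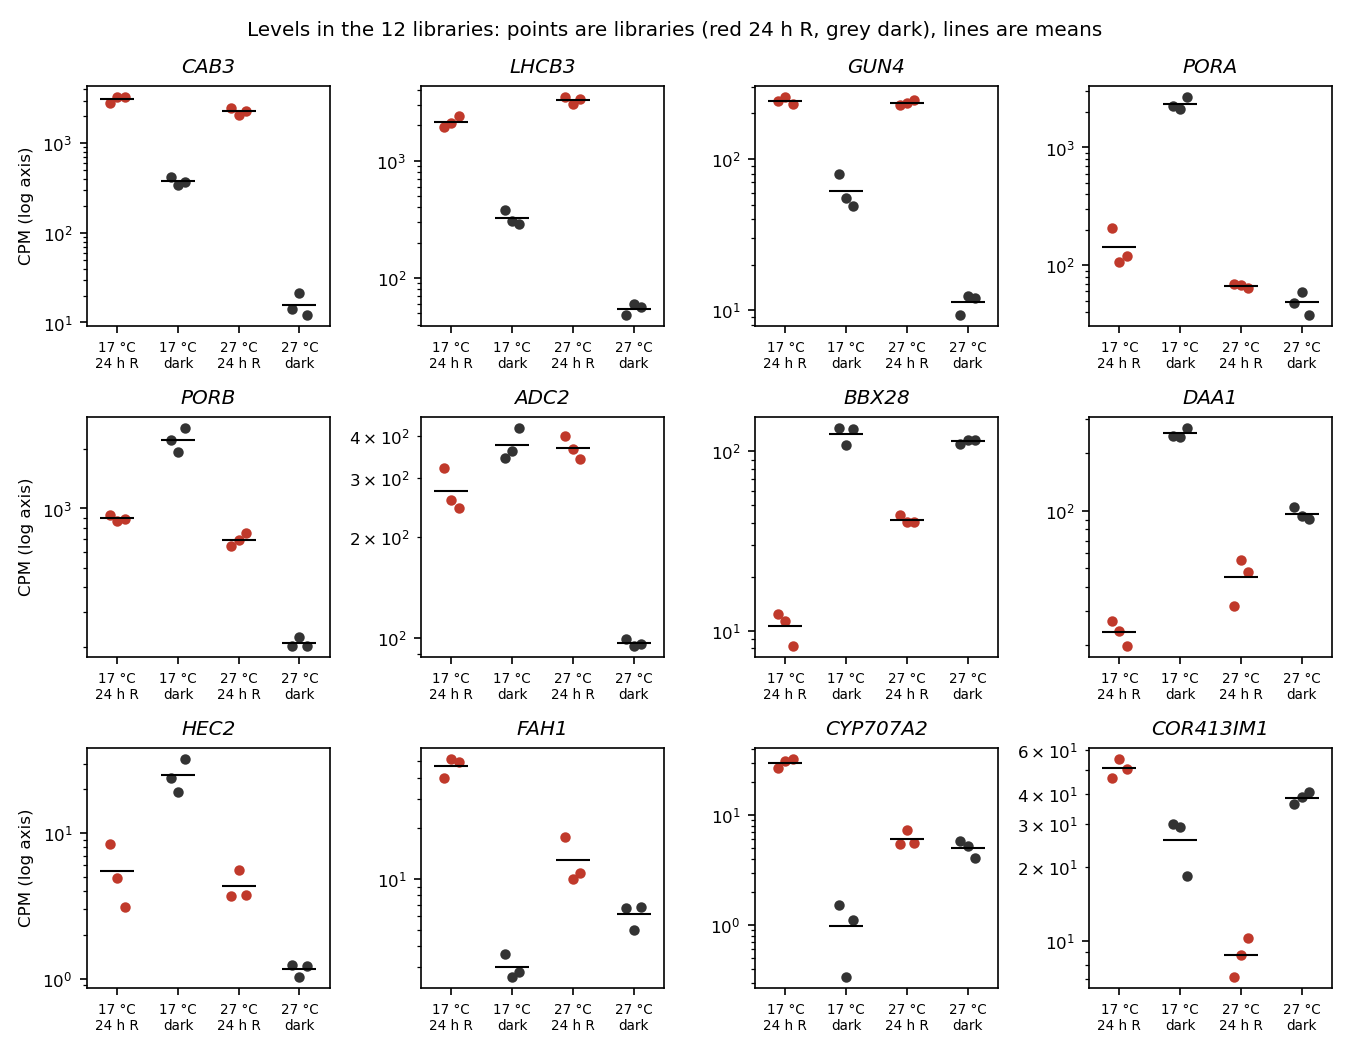
Levels of 12 genes in the 12 libraries, in CPM on a log axis with its own range for each gene. In each panel the groups are, left to right, 17°C after 24 h R, 17°C in darkness, 27°C after 24 h R and 27°C in darkness, points are libraries (red irradiated, dark grey in darkness) and lines are means. For CAB3, LHCB3 and GUN4 the irradiated groups are close together and the dark group at 27°C is far below that at 17°C, whereas PORA is high only in darkness at 17°C and CYP707A2 only after R at 17°C.

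Among 31 nuclear genes of photosystem subunits, 30 rose at 17°C (10.4% of all tested genes did) and all 31 rose at 27°C (9.23% of all). A lower difference was called for 7 of them (2.6% of all), with a median of −0.776. PSAE-1, a subunit of photosystem I, had 1120, 1313 and 1130 CPM at 17°C after 24 h R, against 338, 235 and 252 CPM in darkness. At 27°C PSAE-1 had 1346, 1204 and 1178 CPM after 24 h R, against 59.0, 56.7 and 49.9 CPM in darkness, a difference of −2.38 ± 0.47 (adjusted p = 0.000324). PSAG, PSAH2 and PSAK, also of photosystem I, differed by −2.25, −2.18 and −2.15. Of 19 Calvin cycle genes 3 had a lower difference (2.6% of all tested genes did) and 1 a higher one (1.65% of all). With any 1 library left out 0 to 2 were called lower, with DESeq2, RLE scaling or the replicate block 1, and with quantile normalization 0. The higher one was CP12-2, a small regulatory protein of the cycle, with 201, 260 and 264 CPM at 17°C after 24 h R, against 20.7, 15.1 and 20.4 CPM in darkness, and with 128, 104 and 111 CPM at 27°C, against 27.8, 21.2 and 26.7 CPM in darkness (1.51 ± 0.40, adjusted p = 0.00965). None of 14 photorespiration genes and none of 16 carotenoid genes passed, with medians of −0.397 and 0.0154. GGT1, the peroxisomal glutamate:glyoxylate aminotransferase, had −0.57 ± 0.38, and ZEP, zeaxanthin epoxidase, had 0.56 ± 0.16.

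Of 23 chlorophyll synthesis genes 9 had a lower difference (2.6% of all tested genes did) and none a higher one (1.65% of all), with a median of −0.766. In darkness 13 were higher at 17°C (13.3% of all) and none lower (9.17% of all). PORA and PORB encode protochlorophyllide oxidoreductases, enzymes that need light for their reaction and whose protein accumulates with its substrate in etiolated plastids. PORA had 2234, 2138 and 2684 CPM at 17°C in darkness and only 207, 107 and 119 CPM there after 24 h R. At 27°C it had 70.0, 67.7 and 64.1 CPM after 24 h R and 48.2, 59.4 and 37.6 CPM in darkness. The PORA transcript was therefore high in 1 group only, etiolated seedlings at 17°C. It fell by 4.03 ± 0.47 at 17°C, the change at 27°C was 0.47 ± 0.43, and the difference was −4.50 ± 0.62 (adjusted p = 4.26e-07).

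PORB had 928, 861 and 889 CPM at 17°C after 24 h R, against 2209, 1928 and 2552 CPM in darkness. At 27°C PORB had 643, 689 and 748 CPM after 24 h R, against 201, 225 and 202 CPM in darkness. It fell at 17°C (−1.32 ± 0.30) and rose at 27°C (1.73 ± 0.30), and the difference was −3.05 ± 0.43 (adjusted p = 4.75e-07). GUN4, an activator of magnesium chelatase, rose at both temperatures and differed by −2.39 ± 0.46 (adjusted p = 0.000262): it had 241, 257 and 232 CPM at 17°C after 24 h R, against 80.0, 55.1 and 48.6 CPM in darkness, and 226, 233 and 247 CPM at 27°C, against 9.26, 12.5 and 12.1 CPM in darkness. CRD1, a subunit of the cyclase that forms the fifth ring, differed by −1.76 ± 0.37 (adjusted p = 0.0008).

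**Figure D3:**
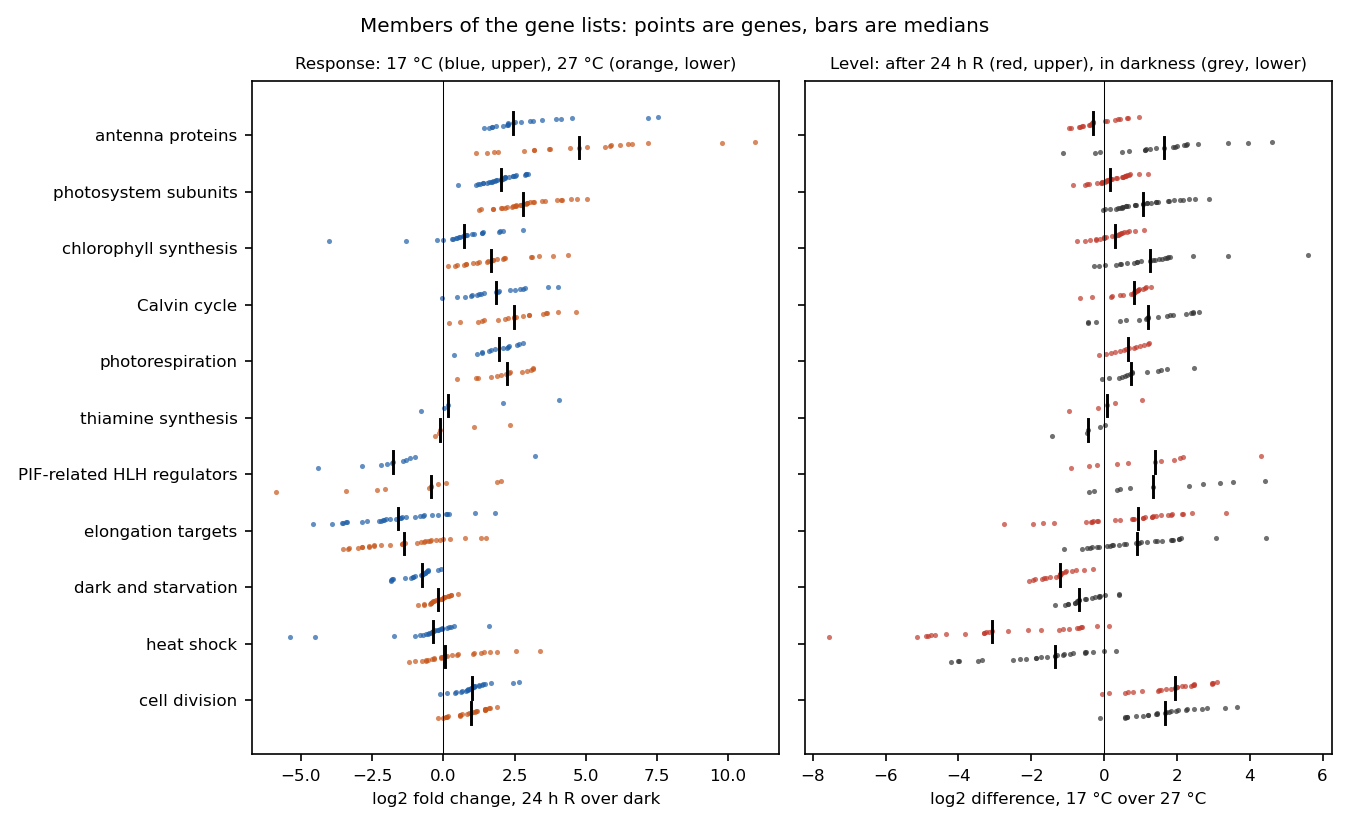
Members of 11 gene lists. The left panel gives the log2 response to 24 h R over darkness at 17°C (blue, upper strip) and at 27°C (orange, lower strip), the right panel the log2 level at 17°C over 27°C after 24 h R (red, upper strip) and in darkness (grey, lower strip). Points are genes and bars are medians. The antenna medians are 2.46 and 4.77 for the responses, and −0.31 after R and 1.65 in darkness for the levels.

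Of 13 nitrogen genes 4 had a lower difference (2.6% of all tested genes did) and 1 a higher one (1.65% of all). NIA1, nitrate reductase, had 455, 519 and 536 CPM at 17°C after 24 h R, against 91.3, 79.8 and 102 CPM in darkness, and 567, 656 and 689 CPM at 27°C after 24 h R, against 23.8, 23.2 and 18.6 CPM in darkness, a difference of −2.40 ± 0.50 (adjusted p = 0.000748). ASN2, an asparagine synthetase, differed by −2.21 ± 0.49. The higher one was GLN1;1, a cytosolic glutamine synthetase, at 1.1 ± 0.24. The call of GLN1;1 was lost without replicate 3 of either irradiated group (0.99 at 17°C, 0.98 at 27°C) or without replicate 1 of the 17°C dark group (0.98).

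The PIFs and related bHLH factors were read next. None of the 7 tested PIF genes had a called difference. PIF4 and PIF5, regulators of growth in warmth and shade, had −0.20 ± 0.31 and −0.15 ± 0.23, although both were lower at 17°C in darkness and after R: PIF4 had 27.1, 24.7 and 29.5 CPM at 17°C after 24 h R and 16.1 to 21.9 CPM in darkness, against 87.8, 106 and 114 CPM at 27°C after 24 h R and 67.3, 60.2 and 58.2 CPM in darkness. PIF1, which represses chlorophyll synthesis, had 35.6, 40.0 and 37.2 CPM at 17°C after 24 h R and 31.3, 32.3 and 35.6 CPM in darkness, against 56.5, 62.5 and 51.2 CPM at 27°C after 24 h R and 33.7, 28.9 and 25 CPM in darkness. Its difference of −0.77 ± 0.18 (adjusted p = 0.0035) was below 2-fold. PIF3 (−0.64), PIF6 (0.72), PIF7 (0.09) and PIF8 (−0.43) did not pass.

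Among 11 related helix-loop-helix regulators 10 fell after R at 17°C (4.77% of all tested genes did) and 4 fell at 27°C (2.13% of all). The difference was lower for 4, HEC2, PRE6, PAR2 and PRE1 (2.6% of all tested genes were). It was higher for 2, PIL1 and AIF1 (1.65% of all), and the median was −0.677. HEC2, which can bind and block PIF1, had 8.35, 4.92 and 3.11 CPM at 17°C after 24 h R, against 23.7, 19.1 and 32.3 CPM in darkness. At 27°C HEC2 had 3.70, 5.56 and 3.75 CPM after 24 h R, against 1.24, 1.02 and 1.22 CPM in darkness. It fell at 17°C and rose at 27°C, and the difference was −4.07 ± 0.51 (adjusted p = 6.37e-08). PRE6, an atypical HLH protein of the growth-promoting PRE family, had 24.1, 23.4 and 21.8 CPM at 17°C after 24 h R, against 72.5, 84.9 and 86.1 CPM in darkness, and 3.75 to 9.45 CPM in the 6 libraries at 27°C, whose irradiated and dark values overlapped (−1.37 ± 0.29, adjusted p = 0.000873).

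PIL1, a shade-induced bHLH gene, fell strongly at both temperatures. It had 4.24, 5.43 and 5.04 CPM at 17°C after 24 h R, against 102, 107 and 102 CPM in darkness, and 1.67, 0.146 and 1.90 CPM at 27°C after 24 h R, against 69.2, 84.6 and 74.6 CPM in darkness. The fall was deeper at 27°C, with a difference of 1.47 ± 0.41 (adjusted p = 0.0144), which rests in part on replicate 2 at 27°C after R: without it the difference was 1.01 and not called. AIF1, which restrains growth through its HLH partners, rose to 21.6, 30.7 and 24.2 CPM at 17°C after 24 h R, against 3.41, 2.27 and 2.54 CPM in darkness, and to 8.68 ± 1.22 CPM (SD, n = 3) at 27°C, against 1.87, 2.47 and 2.09 CPM in darkness. Its difference was 1.2 ± 0.36 (adjusted p = 0.0272) and between 1.04 and 1.15 in the 6 fits without 1 library in which it was no longer called, namely replicate 2 at 17°C after R, replicates 1 and 2 at 27°C after R, replicates 2 and 3 at 17°C in darkness and replicate 2 at 27°C in darkness. HFR1 (−0.51), PAR1 (−0.68), HEC1 (−1.11), IBH1 (0.08) and PRE5 (1.98) did not pass.

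Without replicate 3 at 27°C after R or replicate 2 at 27°C in darkness, 2 of the 11 were called lower in place of 4. PAR2, a repressor of auxin-responsive genes, had −1.33 ± 0.38 and lost its call without replicate 3 at 17°C after R (−1.11), replicate 3 at 27°C after R (−0.97) or replicate 2 at 27°C in darkness (−1.24). PRE1 had −1.10 ± 0.36 and lost its call in 13 of 19 alternatives.

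Several repressed genes fell further at 17°C than at 27°C. BBX28, a B-box protein that binds HY5 and limits its action, had 12.5, 11.4 and 8.21 CPM at 17°C after 24 h R, against 135, 108 and 134 CPM in darkness. At 27°C BBX28 had 44.1, 40.2 and 40.3 CPM after 24 h R, against 110, 115 and 116 CPM in darkness. The dark groups differed by only 0.15 (log2), whereas the irradiated level was lower in every 17°C library, and the difference was −2.10 ± 0.24 (adjusted p = 2.75e-09). BBX24, a related regulator, had −0.54 ± 0.12 at 17°C and 0.68 ± 0.12 at 27°C, neither of them 2-fold, and the difference of −1.22 ± 0.17 was called (adjusted p = 3.54e-07). LNK3, related to clock coactivators, had 3.80, 3.28 and 1.73 CPM at 17°C after 24 h R, against 16.4, 12.1 and 10.5 CPM in darkness, and 17.5, 18.8 and 20.3 CPM at 27°C after 24 h R, against 24.1, 27.0 and 21.3 CPM in darkness (−1.78 ± 0.29, adjusted p = 1.15e-05).

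BBX28, LNK3, RAV1 and ACS8 are among the genes that the study found bound by phyB-GFP or phyD-YFP in other lines. Of that list 81 genes were tested, of which 10 had a lower and 2 a higher difference, with a median of −0.243. Among all tested genes these shares were 2.6% and 1.65%. The higher count was 0 without replicate 2 at 27°C after R and 1 to 3 with any other library left out. At 17°C 30 of the 81 fell and none rose, and at 27°C 19 fell and 3 rose. Among all tested genes 4.77% fell and 10.4% rose at 17°C, and 2.13% fell and 9.23% rose at 27°C. RAV1, a growth-limiting transcription factor, had 87.4, 95.1 and 101 CPM at 17°C after 24 h R, against 229, 213 and 244 CPM in darkness, and 179, 170 and 189 CPM at 27°C after 24 h R, against 189, 191 and 190 CPM in darkness. RAV1 fell at 17°C, and its difference was −1.19 ± 0.18 (adjusted p = 2.3e-06). ACS8, an ACC synthase of ethylene synthesis, had 0.561, 0.442 and 0.552 CPM at 17°C after 24 h R, against 6.94, 8.27 and 8.20 CPM in darkness, and 3.52, 3.51 and 3.58 CPM at 27°C after 24 h R, against 4.70, 4.63 and 2.26 CPM in darkness (−3.77 ± 0.64, adjusted p = 3.27e-05).

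Among 30 elongation genes 20 fell at 17°C (4.77% of all tested genes did) and 16 at 27°C (2.13% of all). Only 4 had a lower difference (2.6% of all) and 1 a higher one (1.65% of all), with a median of −0.159. IAA29, an auxin-response gene of the PIF pathway, was the higher one (1.28 ± 0.32, adjusted p = 0.0054): it had 9.79, 10.7 and 8.90 CPM at 17°C after 24 h R, against 34.6, 44.3 and 40.1 CPM in darkness, and 2.28, 1.24 and 2.85 CPM at 27°C after 24 h R, against 21.3 ± 2.86 CPM (SD, n = 3) in darkness. XTH15, a cell-wall xyloglucan enzyme, fell at both temperatures and differed by −1.23 ± 0.36 (adjusted p = 0.0217). Its call was lost without replicate 3 of the 17°C group after R (−1.17) or in darkness (−1.14), and either of these omissions left 2 of the 30 genes called lower. The study lists light-regulated direct PIF targets, of which 323 were tested. Of these, 26 had a lower difference (2.6% of all tested genes did) and 13 a higher one (1.65% of all), with a median of −0.236.

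Other genes with the smallest p were of mixed function. ADC2, an arginine decarboxylase of polyamine synthesis, had 322, 259 and 244 CPM at 17°C after 24 h R, against 345, 361 and 424 CPM in darkness, and 401, 367 and 343 CPM at 27°C after 24 h R, against 99.7, 94.6 and 96.3 CPM in darkness. Only the dark 27°C libraries were low, and the difference was −2.39 ± 0.27 (adjusted p = 2.75e-09). DAA1, an AAA-type ATPase, fell to 26.7, 23.5 and 19.6 CPM at 17°C, against 246, 244 and 271 CPM in darkness, and to 31.9, 55.7 and 47.7 CPM at 27°C, against 105, 94.3 and 90.7 CPM in darkness (−2.35 ± 0.29, adjusted p = 4.84e-08). CSLA02, a glucomannan synthase, fell at 17°C only (−1.58 ± 0.18, adjusted p = 3.72e-09). GSO1, a receptor kinase of the endodermal barrier, also fell at 17°C only (−1.14 ± 0.14, adjusted p = 5.2e-08). ACX1, a peroxisomal acyl-CoA oxidase, differed by −1.15 ± 0.14, BXL2, a beta-xylosidase, by −1.85 ± 0.24, and HSPRO2 by −1.83 ± 0.24. AT2G34020 and AT2G42220 differed by −4.01 ± 0.43 and −3.43 ± 0.44.

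BETA-TIP, a vacuolar aquaporin of the embryo, had 0.499, 1.39 and 0.138 CPM at 17°C after 24 h R, against 19.7, 21.9 and 25.4 CPM in darkness, and 16.9, 20.6 and 18.4 CPM at 27°C after 24 h R, against 41.9, 45.7 and 37.0 CPM in darkness. The irradiated 17°C libraries were far below all others (−3.85 ± 0.40, adjusted p = 3.5e-10). The 14 tested seed-storage markers were also lowest on average in that group. They summed to 126, 96.8 and 16.9 CPM at 17°C after 24 h R and 349, 97.4 and 199 CPM in darkness, and to 278, 368 and 387 CPM at 27°C after 24 h R and 558, 934 and 348 CPM in darkness. None of the 14 passed the test of the difference, which had a median of −1.17 over them (−0.47 without replicate 1 of the 17°C dark group), and the part of remaining seed transcripts in the change of BETA-TIP was not tested. In bulk seedlings fewer cells of a type and less RNA per cell cannot be told apart.

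Genes with a larger response at 17°C included enzymes of phenolic, hormone and vitamin metabolism. FAH1, ferulate 5-hydroxylase of the sinapate pathway, rose to 40.0, 51.6 and 49.8 CPM at 17°C, against 3.6, 2.6 and 2.8 CPM in darkness, and to 12.9 ± 4.31 CPM (SD, n = 3) at 27°C, against 6.70, 4.99 and 6.79 CPM in darkness. Its difference was 2.90 ± 0.41 (adjusted p = 4.75e-07). CYP707A2, an abscisic acid 8′-hydroxylase that breaks down the hormone, rose to 26.6, 30.7 and 32.4 CPM at 17°C, against 0.334 to 1.51 CPM in darkness. At 27°C CYP707A2 had 5.49, 7.24 and 5.6 CPM after 24 h R and 5.87, 5.23 and 4.07 CPM in darkness, and these groups overlapped (4.64 ± 0.68, adjusted p = 1.44e-06).

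Among 5 tested genes of thiamine synthesis, 2 had a higher difference (1.65% of all tested genes did). THIC makes the pyrimidine part of the vitamin and THI1 its thiazole part. THIC rose to 474, 569 and 627 CPM at 17°C, against 141, 125 and 124 CPM in darkness, and to 268, 249 and 287 CPM at 27°C, against 127, 126 and 132 CPM in darkness. Its dark levels differed by 0.02 (log2) between temperatures, and the difference was 1.04 ± 0.15 (adjusted p = 9.01e-07), just above 2-fold. It was 0.94 without replicate 3 at 17°C after R and 0.99 without replicate 2 at 27°C after R. THI1 rose to 806, 1050 and 974 CPM at 17°C, against 69.1, 53.6 and 47.7 CPM in darkness, and to 785, 749 and 766 CPM at 27°C, against 136, 154 and 166 CPM in darkness (1.72 ± 0.32, adjusted p = 0.00011). The irradiated levels of THI1 differed by 0.30 (log2), which did not pass, and its dark levels were lower at 17°C. TH1 (0.27) did not pass.

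COR413IM1, a cold-regulated protein of the chloroplast inner envelope, had 46.2, 55.4 and 50.4 CPM at 17°C after 24 h R, against 30, 29.1 and 18.4 CPM in darkness, but 7.09, 8.78 and 10.3 CPM at 27°C after 24 h R, against 36.1, 38.6 and 40.7 CPM in darkness. The fall at 27°C was called (−2.14), the change at 17°C was 0.97, and the difference was 3.11 ± 0.38 (adjusted p = 1.91e-08). Of 19 cold-regulated genes 1 had a higher difference (1.65% of all tested genes did) and 2 a lower one (2.6% of all). FER3, a plastid ferritin, was the 1 of 18 iron genes that passed (1.3 ± 0.26, adjusted p = 0.00033): it had 159, 161 and 175 CPM at 17°C after 24 h R, against 42.6, 37.2 and 44.9 CPM in darkness, and 39.7, 46.9 and 45.5 CPM at 27°C after 24 h R, against 30, 24 and 28 CPM in darkness. A share of 1 in 18 is near the 4.26% of all tested genes, so FER3 is described as a single gene. ELF4, a component of the evening complex of the clock, differed by 1.3 ± 0.32 (adjusted p = 0.00456). SQE6, a squalene epoxidase, differed by 2.48 ± 0.34, TLL1, a lipase-like protein, by 4.61 ± 0.59, and PAP8, a purple acid phosphatase, by 2.5 ± 0.35. ACL differed by 1.71 ± 0.23 and FU, a kinase, by 1.70 ± 0.24. AT3G19850, AT5G43450 and AT5G61520 differed by 2.35, 3.76 and 2.94.

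Of the 21 tested dark and starvation genes 8 fell at 17°C (4.77% of all tested genes did) and none fell at 27°C (2.13% of all). A lower difference was called for 4 of them (2.6% of all), with a median of −0.711 over the list. BCAT2, a branched-chain aminotransferase, had 500, 415 and 430 CPM at 17°C after 24 h R, against 1557, 1542 and 1439 CPM in darkness, and 1217, 1054 and 1081 CPM at 27°C after 24 h R, against 1447, 1498 and 1526 CPM in darkness (−1.34 ± 0.26, adjusted p = 0.000221). SEN1, EXL2 and EXO differed by −1.16, −1.07 and −1.14 and lost their calls under quantile normalization. Of 25 heat shock genes 17 were lower at 17°C after 24 h R (10.3% of all tested genes were) and 13 in darkness (9.17% of all). None was higher in either, and 2, HSP22.0 and HSP70b, had a lower difference (2.6% of all). HSP70b had 218, 17.3 and 13.3 CPM at 27°C after 24 h R, so its difference of −2.70 ± 0.88 rests on replicate 1, and was −0.26 without it. Among 25 cell division genes 12 rose at 17°C (10.4% of all tested genes did) and 11 at 27°C (9.23% of all). In the same list 19 were higher at 17°C after R (12.3% of all) and 17 in darkness (13.3% of all). A higher difference was called for 3 cell cycle genes, CDKB2;1, CYCB1;2 and CYCB1;4 (1.65% of all). None of these 3 was called without replicate 3 of the 17°C dark group, where they had 0.96, 0.97 and 1.05, and each lost its call in at least 1 other omission. SMR1, an inhibitor of cyclin-dependent kinases, had a lower difference (−1.07 ± 0.30, adjusted p = 0.015), which was not called in 5 of the 12 omissions of 1 library.

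The temperature dependence was then set against that of each line with a single transgene. The response differed between temperatures for 1052 genes (5.08%) in PHYB-CFP/abcde, 227 higher (1.1%) and 825 lower (3.99%) at 17°C, and for 153 genes (0.739%) in PHYD-YFP/abcde, 65 higher (0.314%) and 88 lower (0.425%). The 539 genes lower at 17°C with both transgenes had a median of −1.49 there, −1.04 in PHYB-CFP/abcde, where 495 were negative and 233 called lower, and −0.586 in PHYD-YFP/abcde, where 480 were negative, 39 called lower and 4 called higher. The 342 genes higher at 17°C had medians of 1.5, 0.569 and 0.494 in the same order of lines, with 272 positive and 53 called higher in PHYB-CFP/abcde and 271 positive and 27 called higher in PHYD-YFP/abcde. Both sets were chosen by their values in the line with both transgenes. Their larger medians there follow from that choice and do not compare the strength of temperature dependence between lines. After 1 h R in the line with both transgenes the response differed for 210 genes (1.01%), 27 higher (0.13%) and 183 lower (0.884%).

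The difference between temperatures itself differed from that of PHYB-CFP/abcde for 79 genes (0.382%), higher for 35 (0.169%) and lower for 44 (0.213%), with DESeq2 147 (82 higher and 65 lower), and from that of PHYD-YFP/abcde for 40 genes (0.193%), higher for 9 (0.0435%) and lower for 31 (0.15%). Of the 881 genes 33 were among the 79 and 30 among the 40, so for most of the 881 no difference between lines was called. Without replicate 1 of PHYB-CFP/abcde at 27°C, the 2 libraries of that line with the highest PHYD, 29 genes were called (chosen after seeing the data). Without replicate 2 at 17°C after R of the line with both transgenes, 11 genes were called against PHYB-CFP/abcde and 23 against PHYD-YFP/abcde. The count against PHYB-CFP/abcde was also 40 without replicate 2 at 27°C after R, 45 without replicate 2 at 17°C in darkness, and 47 or 49 without replicate 2 or 3 at 27°C in darkness.

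**Figure D4:**
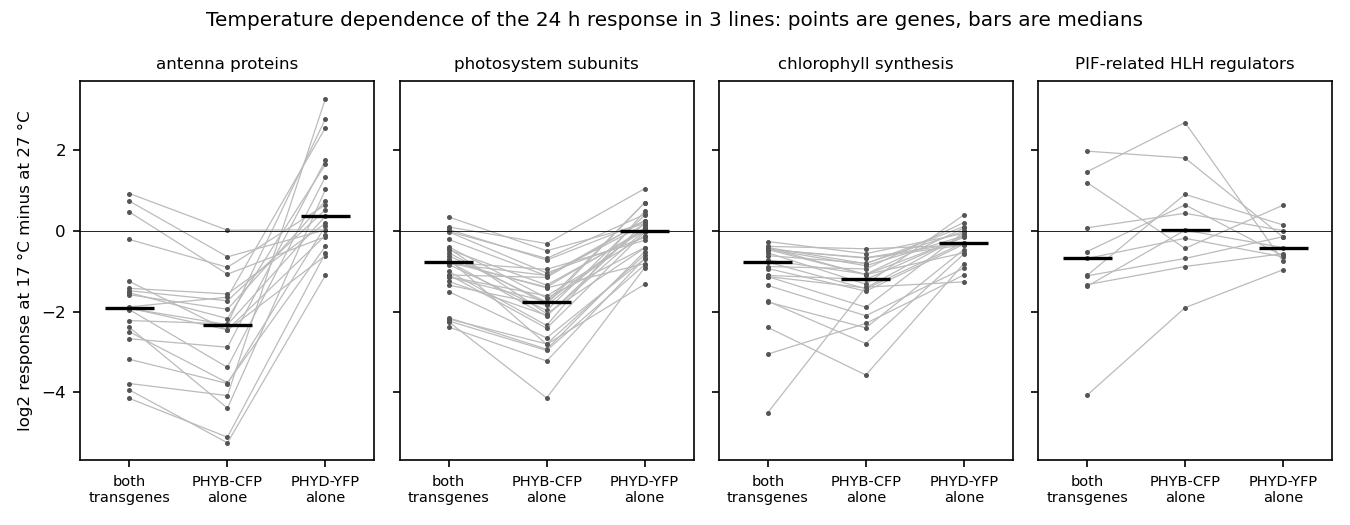
Log2 response to 24 h R at 17°C minus that at 27°C for the members of 4 gene lists in PHYB-CFP, PHYD-YFP/abcde (both transgenes), PHYB-CFP/abcde and PHYD-YFP/abcde. Points joined by a line are 1 gene and bars are medians. The antenna medians are −1.91 with both transgenes, −2.32 with PHYB-CFP alone and 0.372 with PHYD-YFP alone. The photosystem subunit medians are −0.776, −1.76 and 0.00748 in the same order.

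The antenna was where the line with both transgenes parted from PHYD-YFP/abcde. None of the 21 antenna genes was called different from PHYB-CFP/abcde, where the values ran from −0.24 to 2.0 with a median of 0.637. Against PHYD-YFP/abcde 9 of 21 were called lower, against 0.15% of all tested genes. The summed antenna level was 63452 to 68990 CPM at 27°C after 24 h R in the line with both transgenes, 50033 to 64556 CPM in PHYB-CFP/abcde and 6285 to 8546 CPM in PHYD-YFP/abcde. In irradiated seedlings at 17°C the sums were 52632 to 58929 CPM, 39430 to 52737 CPM and 25529 to 31386 CPM in the same order of lines. In darkness at 17°C they were 7833 to 10538 CPM with both transgenes, 8250 to 9686 CPM with PHYB-CFP and 4446 to 8012 CPM with PHYD-YFP. In darkness at 27°C they were 2969 to 3206 CPM with both transgenes, 2132 to 2466 CPM with PHYB-CFP and 2165 to 3364 CPM with PHYD-YFP. The lines thus lay close together in darkness at 27°C, and the irradiated sums of PHYD-YFP/abcde at 27°C were far below those of the other lines. In PHYB-CFP/abcde the response was called lower at 17°C for 25 of 31 photosystem subunit genes (median −1.76), against 7 (−0.776) with both transgenes. For 19 Calvin cycle genes this was 13 (−1.8) against 3 (−0.717), and for 14 photorespiration genes 7 (−1.27) against 0 (−0.397). Among all tested genes 3.99% were called lower in PHYB-CFP/abcde and 2.6% with both transgenes. Called against PHYB-CFP/abcde directly were 0, 0 and 1 of the genes in these lists (0.382% of all), with median differences of 0.839, 0.938 and 0.964.

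LHB1B1 had the smallest p of these. Its temperature dependence was −3.78 ± 0.74 with both transgenes, −4.08 ± 0.76 with PHYB-CFP and 3.28 ± 0.76 with PHYD-YFP, and the difference from the last was −7.06 ± 1.06 (adjusted p = 0.000118, edgeR). In PHYD-YFP/abcde LHB1B1 averaged 1537 ± 243 CPM at 17°C after 24 h R and 7.58 ± 3.95 CPM in darkness, and 79.9 ± 47.8 CPM at 27°C after 24 h R and 3.86 ± 2.21 CPM in darkness (SD, n = 3 each). LHCB2.2 differed by −4.42 (adjusted p = 0.000319), CAB2 by −5.00 (adjusted p = 0.00134) and LHCB2.3 by −4.45 (adjusted p = 0.00134). LHCB2.2 and LHCB2.3 are close paralogs, and reads may be split between them. PIL1 differed in the other direction (2.23, adjusted p = 0.0323). In PHYD-YFP/abcde it averaged 47.7 ± 2.83 CPM in irradiated seedlings at 27°C and 79.4 ± 6.18 CPM in darkness.

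The difference between temperatures was higher than in PHYD-YFP/abcde, besides PHYB and PIL1, for AT3G17580 (2.42), GH9B8 (3.36), an endoglucanase-family gene, and AT1G75200 (1.28). Higher here means more positive, not larger in size. The call of AT3G17580 was lost without replicate 2 at 17°C after R (2.28) or replicate 3 at 27°C after R (2.08). BBX28 differed from both lines, by −1.35 from PHYB-CFP/abcde (adjusted p = 0.037) and by −1.53 from PHYD-YFP/abcde (adjusted p = 0.015). BETA-TIP also differed from both, by −2.74 (adjusted p = 0.00651) and −2.37 (adjusted p = 0.0217).

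Against PHYB-CFP/abcde the smallest p belonged to TZP, a zinc-finger protein that acts with phytochromes. TZP had 72.4, 85.4 and 81.4 CPM at 17°C after 24 h R, against 13.9, 14.7 and 14.4 CPM in darkness, and 127, 115 and 121 CPM at 27°C after 24 h R, against 41.0, 36.6 and 41.6 CPM in darkness. In PHYB-CFP/abcde TZP averaged 33.6 ± 1.03 CPM at 17°C after 24 h R and 12.3 ± 1.45 CPM in darkness, and 98.9 ± 8.12 CPM at 27°C after 24 h R and 21.7 ± 1.85 CPM in darkness (SD, n = 3 each). Its temperature dependence was 0.87 ± 0.17 with both transgenes, −0.74 ± 0.17 with PHYB-CFP and 1.01 ± 0.18 with PHYD-YFP, a difference of 1.61 ± 0.24 from PHYB-CFP/abcde (adjusted p = 0.000161).

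ST2A, a sulfotransferase that inactivates a jasmonate, had 15.9, 14.6 and 14.9 CPM at 17°C after 24 h R, against 146, 205 and 136 CPM in darkness, and 52.3, 43.5 and 50.0 CPM at 27°C after 24 h R, against 345, 382 and 326 CPM in darkness. In PHYB-CFP/abcde it averaged 64.9 ± 10.0 CPM at 17°C after 24 h R and 189 ± 8.56 CPM in darkness, and 43.1 ± 2.57 CPM at 27°C after 24 h R and 378 ± 19.4 CPM in darkness. ST2A was repressed further at 17°C with both transgenes than with PHYB-CFP alone, and the difference in temperature dependence was −2.16 ± 0.37 (adjusted p = 0.00164). ST2A has a close paralog next to it, so its reads may be shared. AT5G02580 (−2.10, adjusted p = 0.00164) and DMT2, a DNA methyltransferase gene (−2.05, adjusted p = 0.0174), had the same sign. AT1G64500 (2.83), AT4G36530 (1.44) and DAN1 (3.75) had the opposite sign, and DAN1 lost its call without replicate 1 of PHYB-CFP/abcde at 27°C (3.55) or without replicate 2 at 17°C after R (3.45).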

How the data were processed

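Poly(A)-enriched RNA from whole seedlings was sequenced, and the authors trimmed reads with Trimmomatic, aligned them to TAIR10 with STAR and deposited raw counts per gene from htseq-count; the strand setting is not given in the sources used here. Organelle genes (279) and tRNA or rRNA genes (627) of 28775 listed were left out. A gene was tested if 23 or more of the 90 libraries had 5 or more counts, which left 20695. Counts were scaled by TMM and fitted with edgeR 4.0.16 (R 4.3.3) as 1 quasi-likelihood model of 30 groups with 60 residual degrees of freedom. The difference between 17°C and 27°C responses was a contrast in this model, as was its difference between lines.

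The members and gene lists were chosen with earlier results of these data known. Named genes were all phytochrome, PIF, PIF-related HLH and thiamine genes, up to 12 called genes per direction with the smallest p in the main comparison whose irradiated and dark libraries did not overlap at the temperature of the larger response, up to 4 called genes per list (the 2 with the smallest p where none was called), and up to 4 per direction in each comparison between lines. Others are named after their values were seen. Some genes that this rule covers are not reported here. On simulated counts for the main comparison, run on 20695 genes, 79 of 100 genes changed 3-fold and 99 of 100 changed 6-fold were recovered, with 6 false calls. The changed genes were drawn from those with a mean count of at least 50, and no outlying library was simulated. Recovery at lower counts, and false calls with an outlying library, were therefore not tested. The alternatives were DESeq2 1.42.0, RLE scaling, quantile normalization with limma 3.58.1, other count filters, no fold threshold, the 12 libraries alone, a replicate block, and each library left out in turn. Promoters came from the RefSeq annotation of TAIR10.1.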

Additional observations from a re-analysis of the deposited data

Results flagged for a closer look

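The response to 24 h R differed between 17°C and 27°C for 881 genes, and 11 of these had called responses in opposite directions. Of these 11, HEC2 (−4.07) and PORB (−3.05) fell at 17°C and rose at 27°C, as did SAUR17, an auxin-responsive gene (−5.55), and LOX4, a lipoxygenase (−2.28). The call of LOX4 was lost without replicate 1 at 27°C after R, where its difference was −1.73.

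The difference between temperatures itself differed from that in PHYB-CFP/abcde for 79 genes. Among those named, it was higher with both transgenes for DAN1 (3.75), AT1G64500 (2.83), TZP (1.61), AT4G36530 (1.44), ACL (1.3) and GLDP2, a subunit of glycine decarboxylase (1.06). It was lower for BETA-TIP (−2.74), ST2A (−2.16), AT5G02580 (−2.10), DMT2 (−2.05), PRE1 (−2.01), DAA1 (−1.62), AT3G54510 (−1.47), BBX28 (−1.35) and HFR1, a bHLH protein that blocks PIFs (−1.17).

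It differed from that in PHYD-YFP/abcde for 40 genes. It was higher with both transgenes for GH9B8 (3.36), AT3G17580 (2.42), PIL1 (2.23), AT1G75200 (1.28) and PHYB (1.09). It was lower for the antenna genes LHB1B1 (−7.06), CAB2 (−5.00), LHCB2.3 (−4.45), LHCB2.2 (−4.42), CAB3 (−3.60), LHCB3 (−3.30) and LHCA4 (−2.29). The others that were lower were HEC2 (−3.12), AT2G34020 (−2.63), BETA-TIP (−2.37), ICS1, isochorismate synthase of salicylate synthesis (−2.35), LNK3 (−1.87), BBX28 (−1.53), MYC2, a jasmonate-response bHLH factor (−1.37), and BBX24 (−1.20).

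In libraries of the same line after 1 h R, which are outside the 24 h comparison, the response differed between temperatures for 210 genes (1.01%), of which 27 were higher and 183 lower at 17°C.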

How the results depend on the processing

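No direction turned round under any of the 19 alternatives among the 88 named genes called in the main comparison, and 64 of them kept their call under all 19. Of the other 24, 20 lost it when 1 library was left out. The main count of 881 was between 700 and 793 with 1 library left out, 811 with the replicate block, 1030 (490 higher and 540 lower) with DESeq2, 843 (391 higher and 452 lower) with RLE scaling, 841 (406 higher and 435 lower) with quantile normalization and 1170 with the 12 libraries alone. Without the fold threshold 1556 genes passed in the main comparison, 7818 and 5759 in the responses at 17°C and 27°C, and 10235 and 10320 between temperatures in darkness and after R. The comparison with PHYB-CFP/abcde was the least stable: 79 genes became 147 with DESeq2, 45 with the replicate block, 29 without replicate 1 of PHYB-CFP/abcde at 27°C (chosen after seeing the data), and 11 to 113 with 1 library left out. The 40 genes of the comparison with PHYD-YFP/abcde became 66 with DESeq2 and 23 to 44 with 1 library left out. Over all tested genes, same-numbered dark and 24 h R libraries of 1 temperature did not deviate together (correlations from −0.0495 to 0.0206), so the numbers were not taken as pairs. No such correlation was computed between same-numbered libraries of different temperatures. Single genes could still share a deviation: CYP71A12 was raised in replicate 1 after R at both temperatures (70.1 CPM at 17°C and 202 CPM at 27°C). The causes of these changes were not tested. With 3 libraries per group and 15613637 to 21121648 counts each, genes under a few CPM were measured with wide error.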
